A study of Mus musculus with 10 samples.

Results

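The genes described here encode the secreted and membrane-bound metalloproteases of the ADAMTS and MMP families, the ADAMTS-like proteins (ADAMTSL) and the tissue inhibitors of metalloproteinases (TIMP). They were taken by name, as all protein-coding mouse genes whose symbol is Adamts, Adamtsl or Mmp followed by a number, or Timp1, Timp2, Timp3 or Timp4. This gave 50 of the 55385 genes listed: 19 ADAMTS, 5 ADAMTSL, 22 MMP and 4 TIMP genes.

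MMPs are zinc-dependent endopeptidases that cleave collagens, other matrix proteins and cell surface proteins, and most are made as inactive precursors. ADAMTS proteases carry thrombospondin repeats, bind to the matrix and cut a narrower set of substrates, such as the proteoglycans versican and aggrecan, the propeptides of fibrillar collagens and von Willebrand factor, while ADAMTSL proteins share the repeats but lack the protease domain. TIMPs bind and block the active sites, and in the liver sinusoid, where endothelial cells rest on a sparse matrix, the balance of these proteins bears on how that matrix is kept and replaced.

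Hepatic endothelial cells of mice were compared in 5 libraries titled Alk1-HEC-KO with genotype KO and 5 titled Control with genotype WT. Alk1 is the protein name of Acvrl1, an endothelial receptor for the circulating ligands BMP9 and BMP10. The liver cells were freed of hepatocytes on a Nycodenz gradient and enriched with beads against CD146, total RNA was sequenced on the BGISeq-500 platform, and each library held 23489494 to 23602771 estimated counts. The promoter or Cre line behind the deletion, the deleted exons, the age of the mice and any treatment are not stated in the sources used here, and nothing says that the libraries came from separate animals, so the p-values measure the spread between samples, which may be technical.

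The targeted gene went against the label: Acvrl1 was at 114 to 136 CPM (counts scaled to a common library size) in the controls and at 239 to 258 CPM in the libraries labelled Alk1-HEC-KO, a 1.95-fold higher level (edgeR adjusted p = 1.7e-07). A gene-level count does not show whether some exons are missing, so the groups are named below as knockout-labelled and control, and every direction rests on those labels. The labelled cell type was checked with 6 endothelial marker genes, which summed to 14364 to 16813 CPM in controls against 12074 to 12909 CPM in knockout-labelled libraries. Of these, Kdr, Tek, Stab2 and Clec4g fell and Pecam1 rose. Cdh5 was not called (log2 0.16, edgeR adjusted p = 0.066), although its groups were apart, at 1618 to 1813 CPM in controls and 1828 to 1979 CPM in knockout-labelled libraries. The lower sum thus does not hold for every marker.

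Promoter sequences are shown for the 4 genes with the largest rises among those in the RefSeq promoter table of GRCm38.p6. These are Timp4, Mmp11, Mmp15 and Adamts9. Mmp28, the member that fell, is shown too, as is Mmp13 from the MMP cluster on chromosome 9. Mmp13 was picked for the motifs in its window. The printed windows show how unlike the upstream regions of single members can be, but as a picked set they do not stand for all members. That of Mmp11 lies inside the gene's annotated span (chr10:75923222-75936496), so it is upstream of the RefSeq start only. Each runs 5′ to 3′ on the gene's strand up to the base before the RefSeq start, with Mmp15 and Mmp28 ended before the first annotated exon base. The windows are chr6:115252206-115252455 (minus strand) for Timp4, chr10:75932503-75932752 (minus) for Mmp11, chr8:95352046-95352267 (plus) for Mmp15, chr6:92943535-92943784 (minus) for Adamts9, chr9:7272264-7272513 (plus) for Mmp13 and chr11:83463072-83463290 (minus) for Mmp28. Capitals mark matches to the motifs TGANTCA (the AP-1 type), GGCGCC (a palindrome bound by BMP-activated SMAD proteins) and TATAAA (the TATA box), searched on both strands.
Timp4: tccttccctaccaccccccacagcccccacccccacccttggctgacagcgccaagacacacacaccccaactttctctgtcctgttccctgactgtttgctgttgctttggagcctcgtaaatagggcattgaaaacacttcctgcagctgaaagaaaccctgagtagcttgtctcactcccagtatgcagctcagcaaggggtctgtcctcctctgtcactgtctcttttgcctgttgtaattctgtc
Mmp11: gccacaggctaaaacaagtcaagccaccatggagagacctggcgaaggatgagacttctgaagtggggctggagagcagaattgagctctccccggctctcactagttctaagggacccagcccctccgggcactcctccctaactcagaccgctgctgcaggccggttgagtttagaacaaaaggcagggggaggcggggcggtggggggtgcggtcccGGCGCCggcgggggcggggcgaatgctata
Mmp15: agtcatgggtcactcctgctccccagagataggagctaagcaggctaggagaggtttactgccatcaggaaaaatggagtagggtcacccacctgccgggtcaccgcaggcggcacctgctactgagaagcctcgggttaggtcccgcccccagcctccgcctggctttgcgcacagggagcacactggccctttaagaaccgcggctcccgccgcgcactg
Adamts9: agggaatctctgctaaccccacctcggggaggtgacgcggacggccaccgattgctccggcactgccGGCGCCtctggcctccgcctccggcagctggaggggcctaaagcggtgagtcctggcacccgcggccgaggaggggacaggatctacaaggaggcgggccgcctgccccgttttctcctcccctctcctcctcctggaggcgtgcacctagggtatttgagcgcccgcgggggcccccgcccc
Mmp13: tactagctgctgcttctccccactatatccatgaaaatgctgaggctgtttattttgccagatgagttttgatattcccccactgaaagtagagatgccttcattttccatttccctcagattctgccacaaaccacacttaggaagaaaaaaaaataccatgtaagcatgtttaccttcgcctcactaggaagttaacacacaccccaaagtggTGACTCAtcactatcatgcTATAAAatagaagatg
Mmp28: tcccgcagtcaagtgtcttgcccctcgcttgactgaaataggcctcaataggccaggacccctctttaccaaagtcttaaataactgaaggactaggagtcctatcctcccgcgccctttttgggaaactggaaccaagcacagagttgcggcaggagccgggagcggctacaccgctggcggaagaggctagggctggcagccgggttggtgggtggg

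The Mmp13 window held an AP-1 type match 35 bases and a TATA box 16 bases before the start, and only 1 CG dinucleotide. Mmp13 was picked as the uncalled member whose window held both motifs, so their presence there is not a result. GGCGCC stood 30 bases before the start of Mmp11 and 183 bases before that of Adamts9, with 14 and 22 CG dinucleotides in those windows. The windows printed for Timp4, Mmp15 and Mmp28 held none of the motifs. Over the full 250 bases, Timp4 had 2 CG dinucleotides against 14 and 15 in Mmp15 and Mmp28. The counts for Mmp15 and Mmp28 thus include bases that are not printed. Among 35 members with an entry (15 had none), AP-1 type matches were in 7 of 11 windows (63.6%) of the 9 MMP genes on chromosome 9 and in 0 of 27 windows of the other 26 members. The TATA box was in 6 of those 11 windows (54.5%) and in 3 of the 27 (11.1%), while GGCGCC was in 0 and in 7 (25.9%). Over all 32851 RefSeq windows of 250 bases, TGANTCA was in 6.75%, GGCGCC in 9.59% and TATAAA in 12.4%. Of the 8 windows of genes that rose, 3 held GGCGCC (Mmp11, Adamts9 and Adamts2), 1 held the TATA box (Adamts1) and 0 held TGANTCA.

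Of the 34 genes that could be tested, 14 were called higher in the knockout-labelled libraries than in controls, 1 was called lower and 19 were not called. Timp4, Mmp11, Adamts5, Mmp15 and Adamts9 rose 14.8-fold, 7.01-fold, 5.13-fold, 4.27-fold and 3.31-fold, and Mmp28 alone fell, 1.69-fold. A call means an adjusted p under 0.05 by edgeR's quasi-likelihood test, and the other 16 of the 50 genes failed the filter on low counts. Of all 15043 tested genes, 10.6% were called higher and 9.08% lower. The median log2 fold change was 0.67 over the 34 genes and 0.00 over all tested genes. Timp4 passed the filter only through the knockout-labelled libraries, so its call and the gap between its groups are not independent of the filter. The groups did not overlap for 12 genes that were higher (8.4% of all tested genes) and for 1 that was lower (7.05% of all). In bulk RNA, fewer cells of a type and less RNA per cell cannot be told apart.

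**Figure D1:**
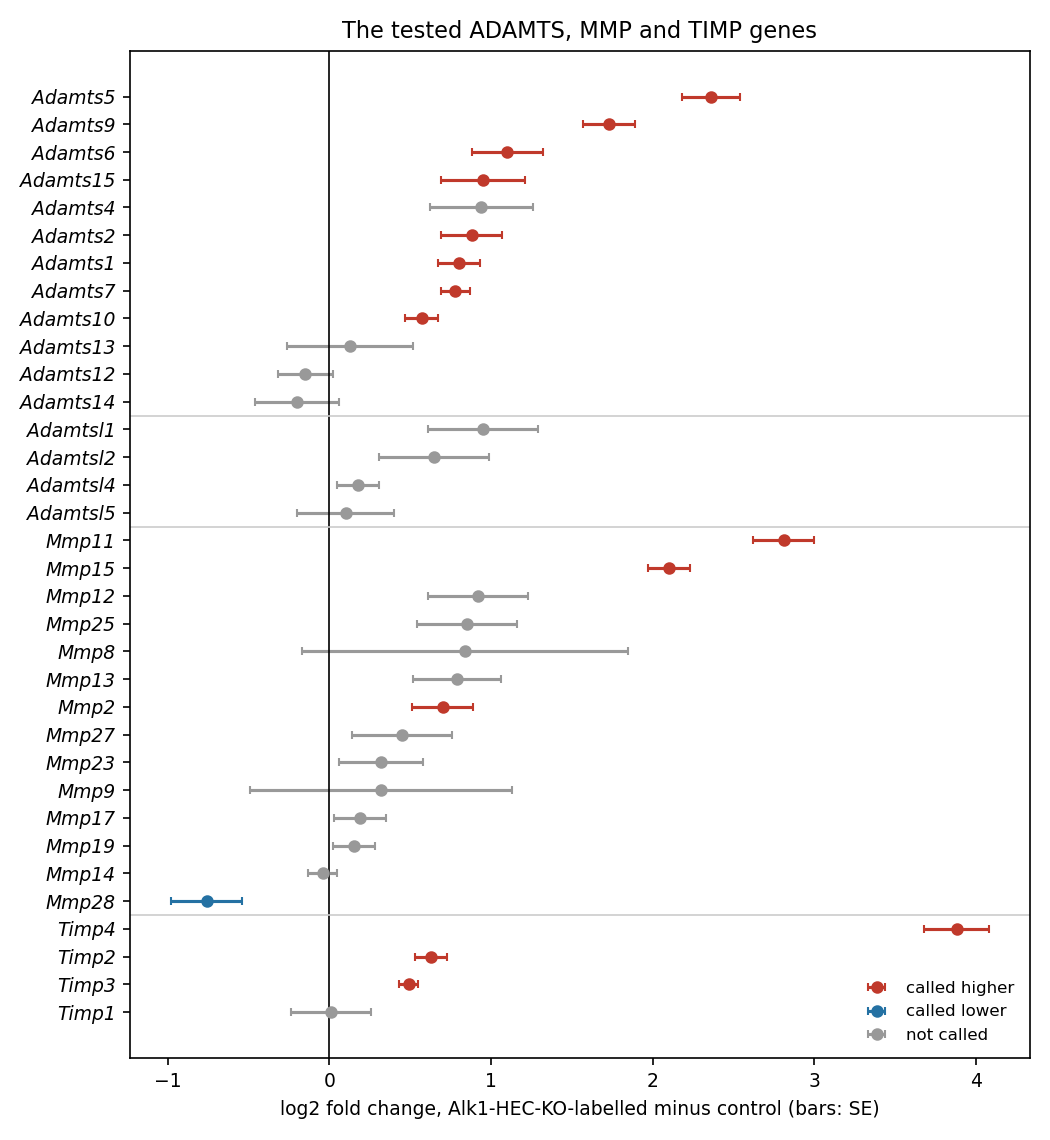
Fitted log2 fold change (knockout-labelled minus control, x axis) of the 34 tested genes, grouped by family from ADAMTS at the top to TIMP at the bottom; bars are SE, n = 5 per group, red genes were called higher, blue lower and grey not called. Timp4, Mmp11, Adamts5 and Mmp15 lie above 2, and the wide bars of Mmp8 and Mmp9 reflect the spread between libraries.

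By family, 8 of 12 tested ADAMTS genes rose (median log2 fold change 0.84), 0 of 4 ADAMTSL genes were called (0.42), 3 of 14 MMP genes rose and 1 fell (0.57), and 3 of 4 TIMP genes rose (0.56). By unadjusted p under 0.05, 19 of the 34 were higher and 1 was lower. The share of all tested genes at that unadjusted threshold was not counted, so these counts have no baseline. The tested genes that were not called were mostly expressed at a few CPM, with Mmp14 (mean 312 CPM) an exception. Called genes such as Mmp2 and Adamts6 (both 2.74 CPM on average) were as low.

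The proteoglycan-cleaving ADAMTS proteases held the largest rises of that family, with 4 of 5 tested members higher. Adamts5 (chr16:85856173-85901828), a major aggrecanase, was at 4.83, 3.22, 4.67, 3.01 and 5.93 CPM in controls 1 to 5 and at 21.3, 27.4, 19.8, 21.9 and 20.8 CPM in knockout-labelled libraries 1 to 5. Every knockout-labelled library was above every control, and the log2 fold change was 2.36 ± 0.18 (SE; adjusted p = 2.8e-06). Adamts9 (chr6:92772699-92943492), which cleaves versican and aggrecan, was at 13.1, 20, 15.4, 10.5 and 14.9 CPM in controls and at 49.8, 53.9, 38.5, 55 and 47.6 CPM in knockout-labelled libraries. The groups were again apart, and Adamts9 rose by 1.73 ± 0.16 on the log2 scale (adjusted p = 2.2e-05). The antisense neighbour 9530026P05Rik shares no exon base with Adamts9 and went the other way (-0.77 ± 0.16, adjusted p = 0.0052).

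Adamts1 (chr16:85793827-85803113), a versican-cleaving protease with antiangiogenic activity, was at 152, 202, 171, 167 and 144 CPM in controls and at 307, 277, 208, 331 and 331 CPM in knockout-labelled libraries. Its lowest knockout-labelled library, number 3, was just above the highest control, number 2, and Adamts1 rose 1.74-fold (log2 0.80 ± 0.13, adjusted p = 0.0014). Adamts1 and Adamts5 lie beside each other on the minus strand, 53059 bases apart. In 15 genes of dissociation and stress response, a list chosen after values were seen, the sum ran from 2716 to 3329 CPM over the controls and stood at 3620, 2008, 3965, 2725 and 4801 CPM in knockout-labelled libraries 1 to 5. Only Btg2 of these 15 rose (log2 0.54, adjusted p = 0.014), and their part in the level of Adamts1 was not tested.

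Adamts15, another versican-cleaving member, was near the limit of the filter, at 0.504, 0.729, 0.436, 0.675 and 0.598 CPM in controls and at 1.47, 1.52, 0.931, 0.715 and 1.09 CPM in knockout-labelled libraries. The groups overlapped at library 4, and the call (log2 0.95 ± 0.26, edgeR adjusted p = 0.022) was lost under 4 of the 22 alternatives with a value. Among these were the fits without knockout-labelled library 1 (0.057) or 2 (0.06). Limma on log2(TPM + 1), with all libraries, also lost it (log2 0.20, adjusted p = 0.074). Adamts4, an aggrecanase, was at 14.6, 28.1, 21.6, 11.8 and 14.3 CPM in controls and at 52.3, 23.2, 24.3, 28.3 and 45.6 CPM in knockout-labelled libraries. It overlapped between groups and was not called (log2 0.94 ± 0.32, adjusted p = 0.072). With all libraries it was called by DESeq2 (0.025), limma-voom (0.042), edgeR without robust estimation (0.039) and limma on log2 TPM (0.034 and 0.032), and by edgeR without control 2 (0.036). Adamts8 and Adamts20 had 12 and 6 counts in all and were not tested.

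The other ADAMTS proteases that rose act on collagen propeptides, microfibrils and cartilage-type matrix proteins. Adamts2 (chr11:50602084-50807573), which removes the amino-terminal propeptide of fibrillar procollagens, was at 3.74, 2.49, 2.22, 3.91 and 3.29 CPM in controls and at 5.88, 4.27, 5.63, 5.72 and 7.28 CPM in knockout-labelled libraries. No value overlapped, and the log2 fold change was 0.88 ± 0.19 (adjusted p = 0.0055). Its close relative Adamts14 was not called (control mean 3.2 ± 0.503 CPM, knockout-labelled mean 2.79 ± 1.2 CPM, SD, n = 5, edgeR adjusted p = 0.65), and Adamts3, with 50 counts, was not tested.

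Adamts6 and Adamts10, relatives that act on fibrillin microfibrils, both rose. Adamts6 (chr13:104287835-104496695) was at 1.72, 1.42, 1.22, 1.98 and 2.35 CPM in controls and at 3.4, 5.22, 4.1, 3.24 and 2.72 CPM in knockout-labelled libraries (log2 1.10 ± 0.22, adjusted p = 0.0038). Adamts10 (chr17:33524204-33553782) was at 51, 41, 35.5, 33.3 and 42.5 CPM in controls and at 57.5, 56.4, 64.7, 61 and 61.4 CPM in knockout-labelled libraries (log2 0.57 ± 0.10, adjusted p = 0.0016). Neither gene overlapped between groups, although control 1 stood close to the lowest knockout-labelled value of Adamts10.

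Adamts7 (chr9:90163069-90208071), which cleaves cartilage oligomeric matrix protein, was at 51, 55.1, 52.5, 50.8 and 43.7 CPM in controls and at 102, 73.6, 77.9, 93 and 86.7 CPM in knockout-labelled libraries. The groups were apart and the log2 fold change was 0.78 ± 0.09 (adjusted p = 6.7e-05). Tbc1d2b on the opposite strand, with 44037 counts against 16204 for Adamts7, shares 1.94% of the exon bases of Adamts7 and also rose (log2 0.37 ± 0.07, adjusted p = 0.0023). The related Adamts12 was not called (log2 -0.15 ± 0.17, adjusted p = 0.61). Adamts13, the von Willebrand factor-cleaving protease made in the liver by stellate cells, was not called either (log2 0.13 ± 0.39, adjusted p = 0.86). Of the remaining members, Adamts16, Adamts17, Adamts18 and Adamts19 failed the filter with 107, 112, 21 and 11 counts. Without the filter, Adamts16 (log2 1.42, adjusted p = 0.016) and Adamts17 (log2 2.11, adjusted p = 0.0057) were called higher.

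Of the 4 tested ADAMTSL genes, which encode matrix-binding proteins without protease activity, 0 were called by edgeR and 1 had an unadjusted p under 0.05. DESeq2 and limma-voom each called 1, Adamtsl1. Adamtsl1 and Adamtsl2 had log2 fold changes of 0.95 ± 0.34 (adjusted p = 0.067) and 0.65 ± 0.34 (0.22), and Adamtsl4 and Adamtsl5, with values of 0.18 and 0.10, had adjusted p-values of 0.35 and 0.86. Control 1 was the highest of the controls for Adamtsl1 and control 4 for Adamtsl2. Without control 1, Adamtsl1 was called (log2 1.38, adjusted p = 0.0033), and without control 4, Adamtsl2 was called (log2 1.0, adjusted p = 0.029). Adamtsl3 had 48 counts and was not tested.

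Among the membrane-type MMPs, which cleave matrix at the cell surface, Mmp15 rose while the far more abundant Mmp14 was not called. Mmp15 (MT2-MMP, chr8:95352268-95375080) was at 12.8, 12.8, 11.9, 11.4 and 17.5 CPM in controls and at 44.3, 64.2, 54.7, 59.2 and 61.8 CPM in knockout-labelled libraries. The lowest knockout-labelled library stood well above the highest control, and the log2 fold change was 2.10 ± 0.13 (adjusted p = 6.2e-07). Mmp14 (MT1-MMP, chr14:54431612-54445364), which activates the precursor of MMP2, was at 357, 329, 305, 339 and 255 CPM in controls and at 285, 278, 310, 326 and 340 CPM in knockout-labelled libraries. The groups overlapped throughout (log2 -0.04 ± 0.09, adjusted p = 0.79), and the sign of that small value turned under library size alone (0.00) and on the log2 TPM scale (0.06).

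The remaining membrane-type genes were low. Mmp17 and Mmp25, both anchored by a lipid tail, were not called (log2 0.19 ± 0.16, adjusted p = 0.44, and log2 0.85 ± 0.31, adjusted p = 0.07). Mmp25 was called by DESeq2 (adjusted p = 0.048) and by edgeR without knockout-labelled library 3 (log2 0.99, adjusted p = 0.041). Mmp16 and Mmp24, with 12 and 9 counts, were not tested.

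**Figure D2:**
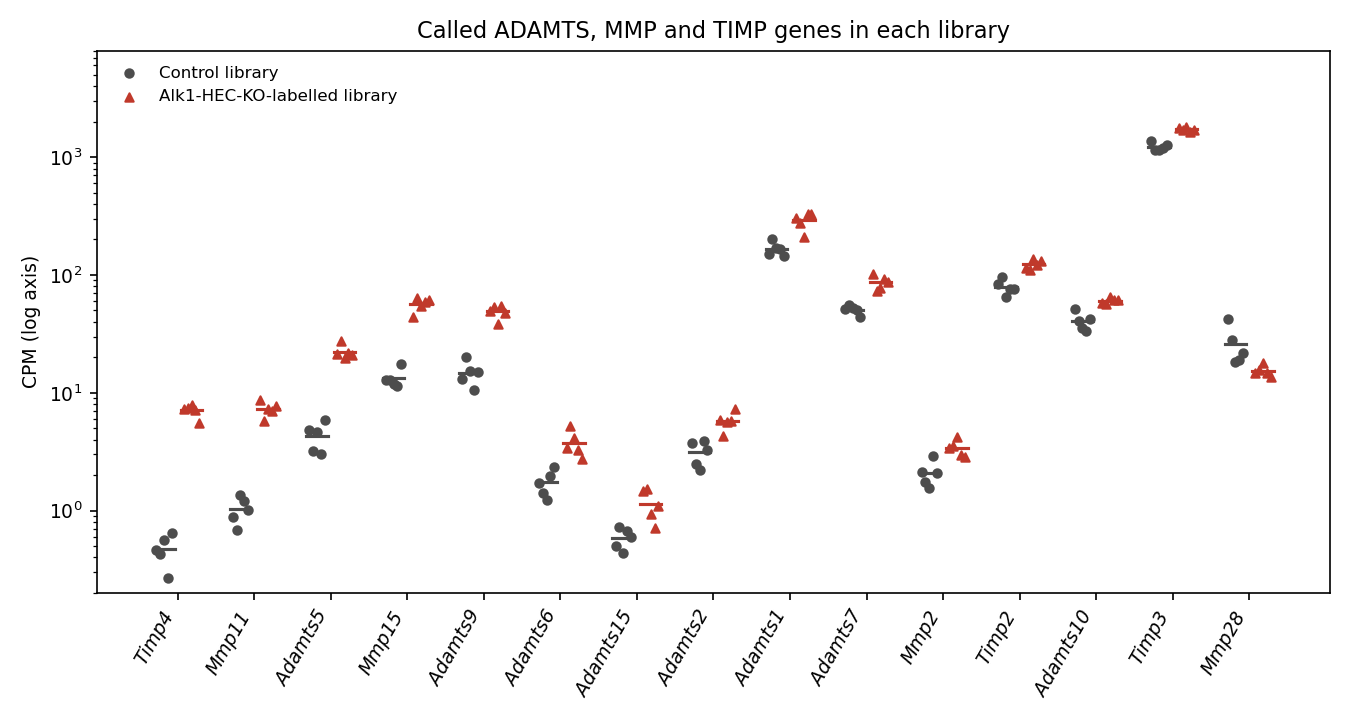
Level in CPM (log axis) of the 15 called genes in each control library (grey circles) and each knockout-labelled library (red triangles); short lines are group means, n = 5 per group. The groups are apart for every gene except Adamts15 and Mmp2, and for Mmp28 only the small gap between 18 and 18.3 CPM separates them.

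Mmp11 (chr10:75923222-75936496), also called stromelysin-3, is activated inside the cell by furin and cleaves serpins more readily than structural matrix. It was at 0.883, 0.687, 1.35, 1.21 and 1.02 CPM in controls and at 8.6, 5.79, 7.32, 6.94 and 7.65 CPM in knockout-labelled libraries. The 5 controls all stood under 2 CPM and no library overlapped; the log2 fold change was 2.81 ± 0.19 (adjusted p = 6.3e-07). Its opposite-strand neighbour Chchd10, which shares 5.58% of the exon bases of Mmp11, had a log2 fold change of -0.03 ± 0.33 (adjusted p = 0.97).

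Mmp28 (epilysin, chr11:83440768-83463071), known from skin and wound repair, was the only member called lower. It was at 42, 28.1, 18.3, 18.9 and 21.7 CPM in controls and at 14.6, 15.5, 18, 14.6 and 13.6 CPM in knockout-labelled libraries. Control 1 was the highest, and the lowest control exceeded the highest knockout-labelled library by a small margin (log2 -0.76 ± 0.22, adjusted p = 0.037). The call was lost without control 2 (0.076) or without knockout-labelled library 1 (0.078), 2 (0.075), 4 (0.079) or 5 (0.084). On the opposite strand, 1700020L24Rik shares 12% of the exon bases of Mmp28 and also fell (log2 -0.67 ± 0.21, adjusted p = 0.039). As the strand setting of the counting is not stated in the sources used here, reads of this and the other opposite-strand pairs cannot be told apart where exons are shared.

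The gelatinases, which digest denatured and basement membrane collagen, behaved unlike each other. Mmp2 (chr8:92827291-92853420) was at 2.14, 1.76, 1.57, 2.88 and 2.09 CPM in controls and at 3.4, 3.53, 4.23, 2.94 and 2.84 CPM in knockout-labelled libraries. Control 4 overlapped the knockout-labelled range, and Mmp2 rose 1.62-fold (log2 0.70 ± 0.19, adjusted p = 0.02). The call was lost without knockout-labelled library 3 (adjusted p = 0.054) and with the replicate number as a block (0.062).

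Mmp9, a neutrophil and macrophage gelatinase, was at 4.2, 21.7, 20.2, 5.85 and 9.35 CPM in controls and at 48.6, 12.3, 6.26, 5.47 and 3.72 CPM in knockout-labelled libraries. Mmp8, the neutrophil collagenase, was at 1.14, 10.5, 7.24, 0.9 and 1.41 CPM in controls and at 21.9, 9.98, 2.67, 2.48 and 0.92 CPM in knockout-labelled libraries. Controls 2 and 3 and knockout-labelled libraries 1 and 2 were the highest for both genes, and neither was called (Mmp9 log2 0.32 ± 0.81, adjusted p = 0.84; Mmp8 log2 0.84 ± 1.01, adjusted p = 0.62). Without knockout-labelled library 1 the log2 fold changes were -0.82 and -0.08. The sum over 10 neutrophil markers stood at 32.8, 194, 280, 49.9 and 56.6 CPM in controls 1 to 5, against 499, 164, 55.6, 61 and 18.8 CPM in knockout-labelled libraries 1 to 5, so the same 4 libraries were the highest. Mpo and Elane were under 1 CPM in every library, and of 7 markers tested 0 were called by edgeR (0 at an unadjusted p under 0.05), DESeq2 or limma-voom. The part of neutrophil RNA in the levels of Mmp8 and Mmp9 was not tested.

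**Figure D3:**
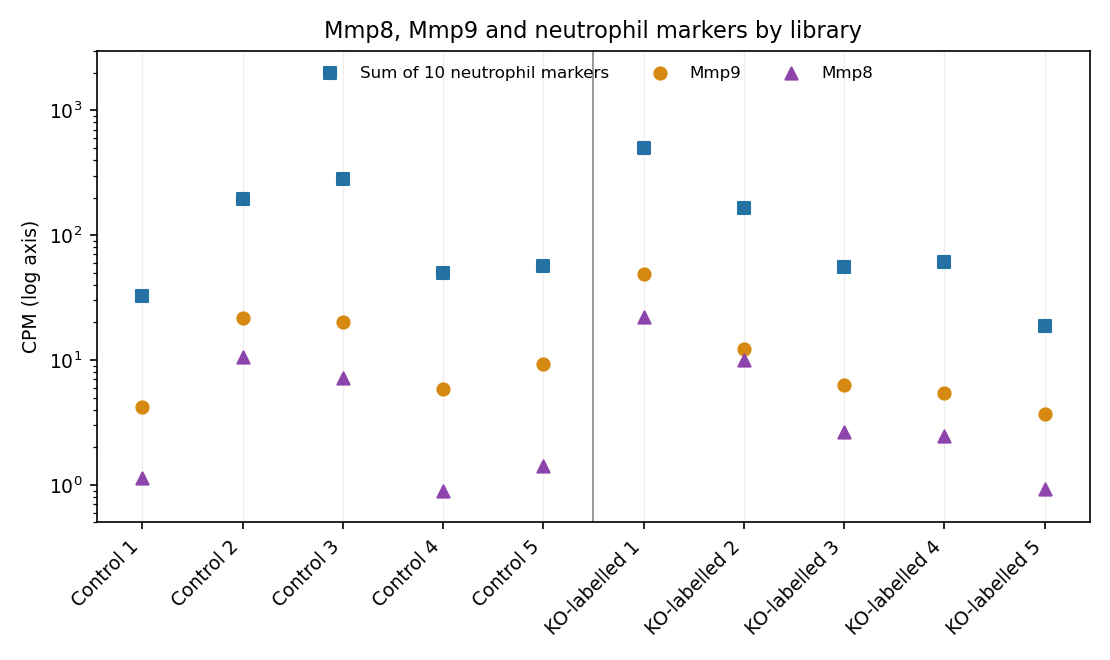
Level in CPM (log axis) of Mmp9 (circles), Mmp8 (triangles) and the sum of 10 neutrophil markers (squares) in each library; the vertical line parts the controls from the knockout-labelled libraries. All of them are highest in knockout-labelled library 1, at 48.6, 21.9 and 499 CPM, and high in controls 2 and 3.

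The remaining MMP genes were expressed at low levels. Mmp12 (macrophage elastase) and Mmp13 (a collagenase) had log2 fold changes of 0.92 ± 0.31 (adjusted p = 0.061) and 0.79 ± 0.27 (0.058) and were not called. Leaving out control 2 or knockout-labelled library 5 gave a call for both, with adjusted p-values of 0.017 and 0.042 for Mmp12 and 0.03 and 0.037 for Mmp13. Mmp19, Mmp23 and Mmp27 were not called, with log2 fold changes of 0.15, 0.32 and 0.45 and adjusted p-values of 0.46, 0.43 and 0.34. Tmem198b on the opposite strand shares 22.3% of the exon bases of Mmp19, with 8376 counts against 944 for Mmp19. Tmem198b rose (log2 0.33 ± 0.06, edgeR adjusted p = 0.0015). Mmp3, Mmp7, Mmp16, Mmp20, Mmp21 and Mmp24 had 97, 93, 12, 1, 9 and 9 counts over all libraries, while Mmp1b and Mmp10 had 0. A count of 0 in a library allows up to 3 counts, or 0.128 CPM in a library of median size, for counting error only.

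The MMP genes clustered on chromosome 9 were low. The 9 members on chromosome 9 between 7272514 and 7699585, a stretch of 427 kilobases, are Mmp13, Mmp12, Mmp1b, Mmp3, Mmp10, Mmp8, Mmp27, Mmp20 and Mmp7. Of these, 5 failed the filter and 4 were tested. By edgeR 0 were called, with 2 at an unadjusted p under 0.05. DESeq2 called 2 (Mmp12 and Mmp13) and limma-voom 0. The other called MMP genes, Mmp2, Mmp11, Mmp15 and Mmp28, lie elsewhere.

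Of the 4 inhibitors, Timp2, Timp3 and Timp4 rose and Timp1 was not called. Timp4 (chr6:115241892-115252205), the inhibitor with the narrowest tissue range, was at 0.462, 0.429, 0.567, 0.27 and 0.64 CPM in controls and at 7.34, 7.48, 7.87, 7.19 and 5.52 CPM in knockout-labelled libraries, on 55 and 846 counts in all. Every knockout-labelled library was above every control (log2 3.88 ± 0.20, adjusted p = 1.0e-07). On the log2(TPM + 1) scale, which understates changes of low genes, the difference was 1.99 (limma adjusted p = 2.1e-07). Timp4 overlaps Syn2 on the opposite strand, with which it shares 1.53% of its exon bases, and Syn2 was not called (adjusted p = 0.1).

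Timp3 (chr10:86300372-86349506), which is held in the matrix and also blocks ADAM17 and the aggrecanases, was at 1364, 1158, 1147, 1202 and 1262 CPM in controls and at 1771, 1702, 1793, 1630 and 1696 CPM in knockout-labelled libraries. All knockout-labelled libraries lay above the controls, with a log2 fold change of 0.49 ± 0.06 (adjusted p = 1.1e-04). Syn3 on the opposite strand shares 21.3% of the exon bases of Timp3 but had 514 counts against 347353. Timp2 (chr11:118301069-118355740), a cofactor in the activation of MMP2 by MMP14, was at 83, 95.3, 64.5, 76.5 and 76.4 CPM in controls and at 115, 110, 136, 122 and 132 CPM in knockout-labelled libraries. Its groups did not overlap either, and it rose by 0.63 ± 0.10 on the log2 scale (adjusted p = 5.4e-04). Timp1, the inhibitor raised in scarring liver, had a control mean of 1.8 ± 0.457 CPM and a knockout-labelled mean of 1.82 ± 0.607 CPM (SD, n = 5; log2 0.01 ± 0.25, edgeR adjusted p = 0.98).

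Per transcript length, in TPM, the pool was made mostly of a few genes. Timp3 was first at 417 ± 54.1 TPM in controls and 623 ± 29.9 TPM in knockout-labelled libraries (SD, n = 5), followed by Mmp14 at 206 and 214 TPM, Adamts1 at 56.8 and 107 TPM and Timp2 at 34.6 and 57.3 TPM. Timp3 alone made up 46.6 to 55.4% of the summed TPM of all members in controls and 50.3 to 55.7% in knockout-labelled libraries. Timp3, Mmp14 and Adamts1 together made up 80.1 to 84.9% and 77.3 to 80.8%. The genes with the largest rises were low on this scale even after the rise, with Timp4 at 3.71, Adamts5 at 3.45, Mmp11 at 6.29 and Mmp15 at 19.1 TPM.

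**Figure D4:**
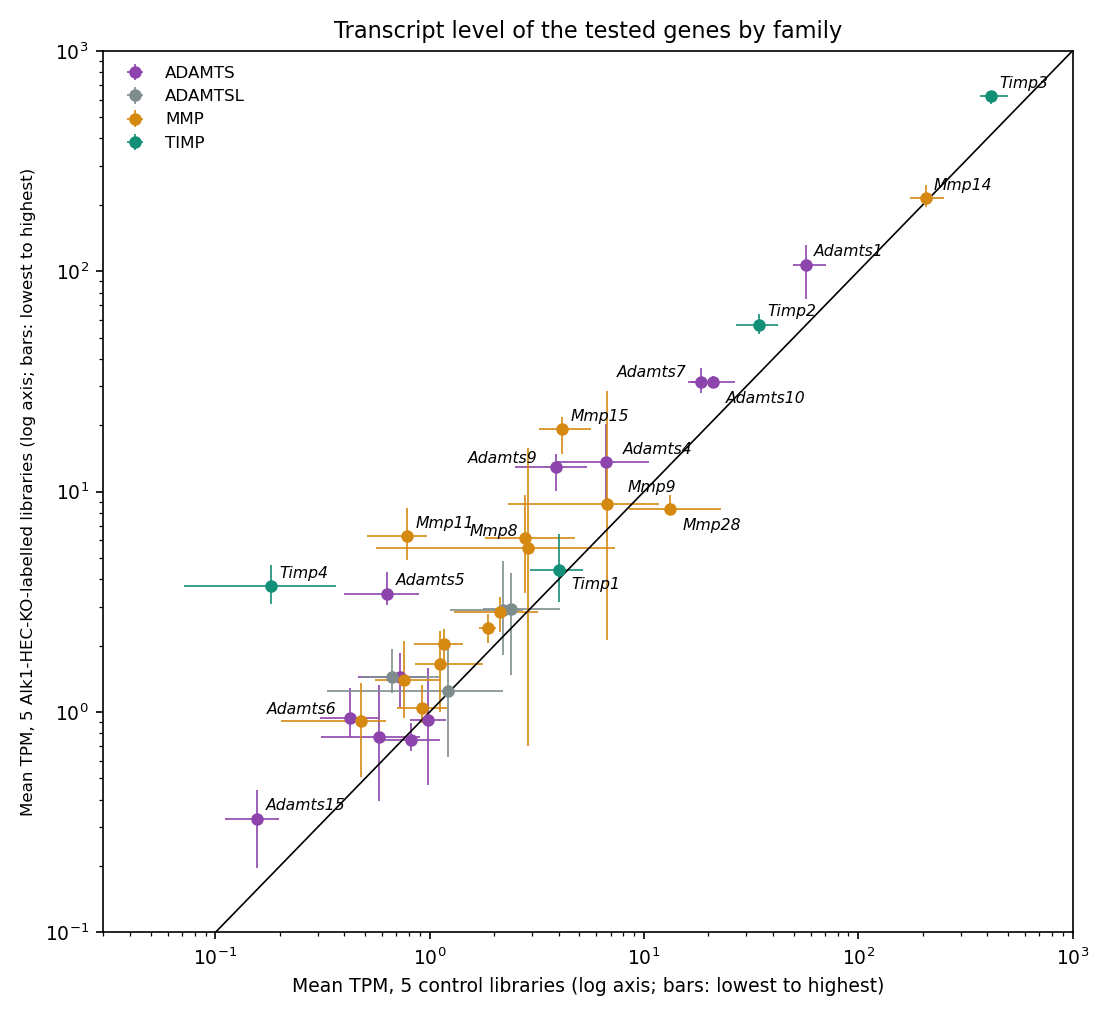
Mean TPM of the tested genes in the controls (x axis) and in the knockout-labelled libraries (y axis), both on log axes, coloured by family; bars run from the lowest to the highest of 5 libraries, and the diagonal marks equal levels. Timp3 (417 and 623 TPM) and Mmp14 (206 and 214 TPM) are at the top right, and Timp4, Mmp11, Adamts5 and Mmp15 lie far above the diagonal.

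The summed TPM of the 19 ADAMTS genes was 111 ± 14.9 in controls and 206 ± 27.8 in knockout-labelled libraries (SD, n = 5), with the groups apart at 134 against 165. For the 4 TIMP genes the sums were 456 ± 57.6 and 688 ± 31.4, and for the 5 ADAMTSL genes 6.62 ± 0.946 and 8.72 ± 0.735. The MMP sum, 246 ± 33.6 and 282 ± 14.6, overlapped between groups and was set largely by Mmp14.

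Other genes of matrix proteolysis came from 3 lists with 50 genes, of which 44 were tested, 16 rose, 7 fell and 21 were not called (median log2 fold change 0.21), where 10.6% of all tested genes were called higher and 9.08% lower. Among 17 tested regulators, 5 were called higher and 4 lower. The plasminogen activators moved apart: Plau, urokinase, fell from 63.6 ± 10.9 to 30.8 ± 3.05 CPM (SD, n = 5; edgeR adjusted p = 4.8e-05), while Plat, tissue plasminogen activator, rose from 6.12 ± 1.38 to 14.2 ± 2.97 CPM (SD, n = 5; edgeR adjusted p = 3.8e-04).

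Reck, a membrane-anchored MMP inhibitor, fell by 0.64 ± 0.12 on the log2 scale (adjusted p = 0.0020), and Tfpi2 by 0.36 ± 0.07 (0.0026). The broad protease trap A2m was at 3.57, 2.75, 2.79, 2.43 and 1.96 CPM in controls and at 0.462, 0.329, 0.508, 0.757 and 0.167 CPM in knockout-labelled libraries (log2 -2.59 ± 0.31, adjusted p = 8.1e-05). It passed the filter only through the controls, so its call is not independent of the filter. Plasminogen (Plg) was not called (adjusted p = 0.062), and its highest libraries, controls 2 and 4 at 52.7 and 45.2 CPM, were also the highest in the sum of 10 hepatocyte markers, at 2096 and 2139 CPM. The part of hepatocyte RNA in these values was not tested. Furin, which activates MMP11 and the membrane-type MMPs, the urokinase receptor Plaur and the testican Spock2 rose, with log2 fold changes of 0.19, 0.90 and 0.65, overlapping groups and adjusted p-values of 0.025, 0.033 and 0.045. All 3 calls were lost without control 4 (adjusted p of 0.057, 0.083 and 0.11), control 5 (0.058, 0.072 and 0.094), knockout-labelled library 1 (0.062, 0.074 and 0.068) or 5 (0.066, 0.068 and 0.099). Plaur also lost its call without control 1 (0.068) or knockout-labelled library 4 (0.06), and Spock2 on leaving out control 1 (0.065), control 3 (0.086), knockout-labelled library 2 (0.077) or knockout-labelled library 3 (0.078). With all libraries, Furin lost its edgeR call without the filter (0.065), with transcript length offsets (0.12) and with the replicate number as a block (0.061). Limma on log2 TPM did not call Furin either (0.088 and 0.086). Plaur lost its edgeR call without the filter (0.096) and with the block (0.16), and Spock2 without the filter (0.10).

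Among 10 tested related metalloproteinases, 4 rose, and 0 were lower by edgeR even at an unadjusted p under 0.05, or by DESeq2 or limma-voom. Bmp1, the procollagen C-proteinase, was at 2.97 to 4.25 CPM in controls and at 12.2 to 15.6 CPM in knockout-labelled libraries (3.96-fold, adjusted p = 1.4e-07). Adam12 rose 2.64-fold (adjusted p = 4.3e-04), and the sheddases Adam10 and Adam15 both rose 1.38-fold (6.1e-05 and 1.2e-04). Adam17, the target of TIMP3, was not called (log2 0.12, adjusted p = 0.13).

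Among 17 tested matrix substrates, 7 rose and 3 fell. The procollagens processed by ADAMTS2 and BMP1 rose, by log2 fold changes of 1.61 ± 0.07 for Col1a1, 1.45 ± 0.08 for Col1a2 and 1.23 ± 0.09 for Col3a1, as did the basement membrane chains Col4a1 (0.84 ± 0.06) and Col4a2 (0.70 ± 0.06) and the microfibril protein Fbn1 (0.67 ± 0.09). Fn1 rose too (0.60 ± 0.16, adjusted p = 0.02), a call lost without knockout-labelled library 5 (0.051), without the filter (0.075) and with the replicate number as a block (0.058). Vwf, the substrate of ADAMTS13, ran from 390 to 575 CPM in controls, against 98.8 to 178 CPM in knockout-labelled libraries, and fell by 1.70 ± 0.17 on the log2 scale (adjusted p = 6.2e-05). Bgn fell by 0.57 ± 0.07. Ltbp1, which binds fibrillin microfibrils, fell by 0.51 ± 0.15 (adjusted p = 0.034), a call that was lost on leaving out control 1 (0.078), 2 (0.065) or 4 (0.075), or knockout-labelled library 2 (0.073), 3 (0.056) or 4 (0.077). Of the proteoglycan substrates of the ADAMTS proteases, Vcan was not called (0.417 ± 0.201 and 0.56 ± 0.292 CPM, SD, n = 5; edgeR adjusted p = 0.59), and Acan, Bcan and Ncan had 5, 12 and 6 counts and were not tested.

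**Figure D5:**
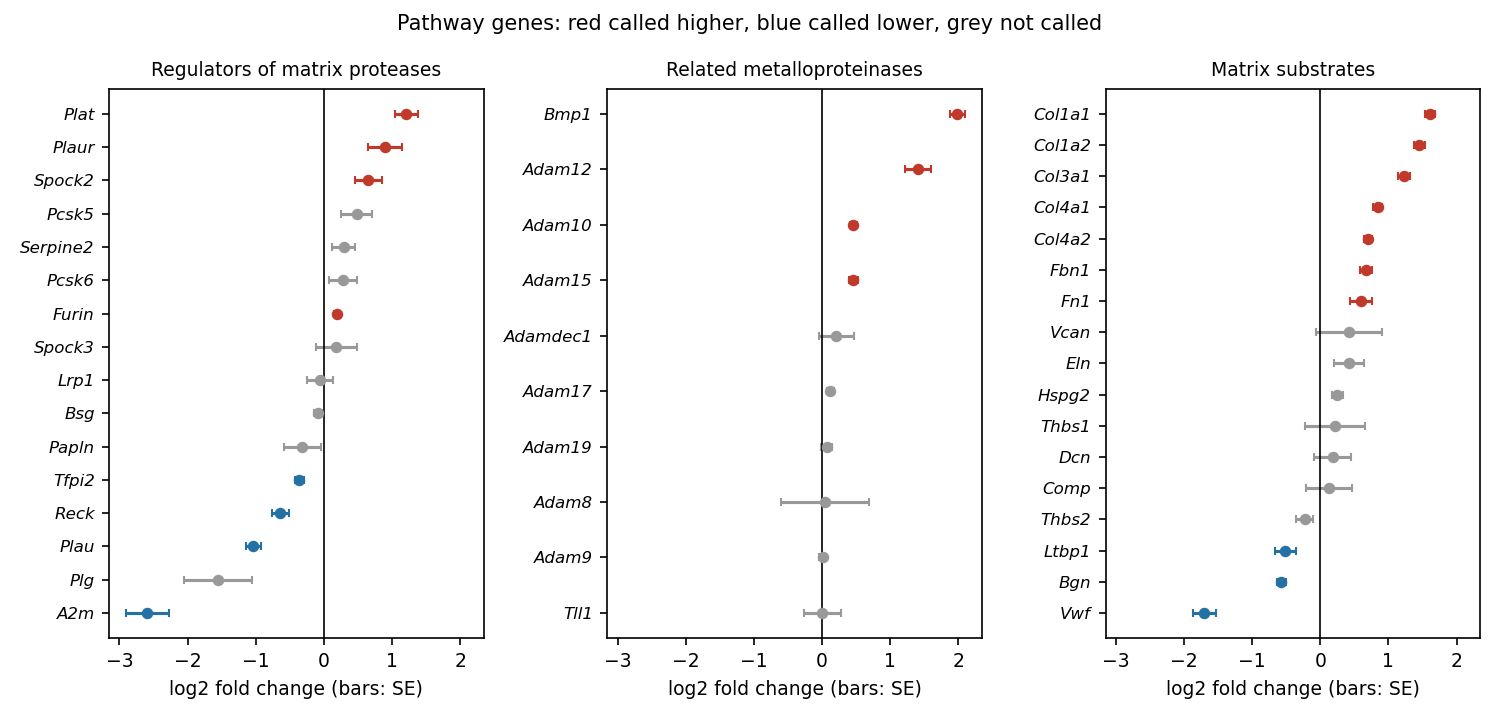
Fitted log2 fold change (knockout-labelled minus control, x axes) of tested genes of the 3 lists; bars are SE, n = 5 per group, red genes were called higher, blue lower and grey not called. Plat, Bmp1 and Col1a1 lead their panels, while Plau, A2m, Reck and Vwf lie on the lower side.

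Several of these genes are also made by other liver cells. For the counts of called markers below, 10.6% of all tested genes were called higher and 9.08% lower. The 12 stellate cell and fibroblast markers summed to 160 to 258 CPM in controls, against 159 to 282 CPM in knockout-labelled libraries, with 2 of 12 called higher (Rgs5 and Ngfr). Bile duct markers were higher in the knockout-labelled libraries, with sums over 7 genes of 183 to 264 and 361 to 617 CPM and 5 of 6 tested genes called. Hepatocyte markers summed to 639 to 2139 and 597 to 1331 CPM (3 of 10 called lower), Kupffer cell and macrophage markers to 652 to 2032 and 573 to 1410 CPM (0 of 10 called by edgeR, DESeq2 or limma-voom, 1 at an unadjusted p under 0.05), and mural and smooth muscle markers to 48.4 to 85.8 and 61.8 to 98.1 CPM. B and plasma cell markers summed to 11.2 to 20 and 17.4 to 40.2 CPM. Jchain and Mzb1 of 6 genes were called higher (2.81-fold and 2.09-fold, edgeR adjusted p of 0.023 and 0.025), with their groups apart. Mzb1 was over the cut-off of the filter in 2 controls and 5 knockout-labelled libraries, so its call is not independent of the filter. T and NK cell markers summed to 31.1 to 46.8 and 33.9 to 79.4 CPM, with Cd3d and Cd4 of 8 genes called lower. Cd3d was over that cut-off in 5 controls and 4 knockout-labelled libraries, which limits its call likewise. Mesothelial markers summed to 73.7 to 115 and 60.3 to 101 CPM, with Gpm6a lower and Krt19, which is also a bile duct marker, higher. Monocyte and dendritic cell markers summed to 10.8 to 22.3 and 12.3 to 24.2 CPM. The part of these cells in the levels of the proteases and inhibitors was not tested. Without controls 2 and 4, the libraries with the most hepatocyte marker RNA, 14 members were called higher and 0 lower, among 1889 genes called in all. Without controls 2 and 3 and knockout-labelled library 1, which had the most neutrophil marker RNA, 13 were called higher and 0 lower. In that fit 2074 genes were called in all. Both fits were chosen after seeing the data, and neither removes the difference in bile duct markers.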

How the data were processed

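RNA from 10 liver endothelial cell libraries was analysed, 5 per group, grouped by sample title and genotype. Per the submitters' processing notes, Trim Galore 0.6.4 was used on the reads, then kallisto 0.4.6 with the build GRCm38.p6. The authors deposited expected counts, which are estimates and can be fractional, for each gene. The authors also deposited TPM values. How transcripts were summed to genes is not stated in the sources used here.

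Symbols came from GENCODE M21 by stable identifier (55144 of 55385 genes, and 49 of the 50 members also by version). Mmp1a, a polymorphic pseudogene there, was left out. Rounded estimated counts went into edgeR 4.0.16 (R 4.3.3): filterByExpr with a minimum count of 10, TMM scaling, robust quasi-likelihood test, genotype alone, Benjamini-Hochberg adjustment over 15043 genes, threshold 0.05. CPM values use TMM-scaled library sizes. The SE of a log2 fold change was derived from the F statistic. Alternatives were DESeq2 1.42.0, limma-voom and limma 3.58.1 on log2 TPM with pseudocounts of 1 and 0.1, other scaling, filters and length offsets, a replicate block and each library left out. On simulated counts for this comparison (14765 genes), 61.2% of genes changed 1.5-fold, 82.1% of those changed 2-fold and 92.4% of those changed 4-fold were called, and 4.8% of calls were false. The changed genes had a control mean of at least 1 CPM and the simulated spread came from the controls alone. These shares therefore do not cover members with lower control means. Libraries of a group differed by more than sampling noise (chi-square per degree of freedom 10.38 to 29.62), so all 10 were kept. Counting error is largest for members with few counts.

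Members and lists were chosen with earlier results of these data known. Called members and uncalled members with a mean of at least 5 CPM are given with the value in every library, other members by summaries, and called genes of the lists may be named. Promoters shown are those of members that rose by at least 1 on the log2 scale and have an entry, plus Mmp28 and Mmp13. Mmp13 was added as the uncalled member whose window held both TGANTCA and TATAAA. Of the list genes, 1 is not reported here beyond the counts.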

Additional observations from a re-analysis of the deposited data

Results flagged for a closer look

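In 114 groups of 5 libraries (the 34 tested members and the called list genes), the gap of the highest or lowest library to its nearest neighbour was set against the whole range, with a critical value of 0.71. Chance alone gives about 5% of groups, and 10 stood out, of which 8 were among the 68 groups of members. Among knockout-labelled libraries, Adamts5 was high in library 2 (27.4 CPM, the others 19.8 to 21.9), Mmp9 in library 1 (48.6 CPM, the others 3.72 to 12.3), while Mmp23 was low in library 4 (1.6 CPM, the others 1.84 to 1.9), Timp4 in library 5 (5.52 CPM, the others 7.19 to 7.87) and Bgn in library 1 (854 CPM, the others 962 to 985). Among controls, Adamtsl1 was high in control 1 (3.32 CPM, the others 0.855 to 1.46), Adamtsl2 in control 4 (6.03 CPM, the others 2.32 to 2.82), Mmp15 in control 5 (17.5 CPM, the others 11.4 to 12.8), Mmp27 in control 3 (2.01 CPM, the others 0.925 to 1.07) and Reck in control 1 (12.8 CPM, the others 9 to 10.1).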

How the results depend on the processing

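Over 23 alternatives, 11 of the 15 called members stayed called under each one that gave a value, 4 (Adamts2, Adamts15, Mmp2 and Mmp28) lost the call under some and 0 turned direction. Members called higher numbered 13 to 19, against 14. The count called lower, 1, was 0 under library size alone, without the filter, in limma on log2(TPM + 1) and log2(TPM + 0.1), with the replicate block and without controls 2 and 4 or controls 2 and 3 and knockout-labelled library 1, and 0 to 1 with single libraries left out. Adamts2 lost its call only without those last 3 libraries (log2 0.65, adjusted p = 0.055). The cause was not tested. Of 19 uncalled tested members, 6 were called under some alternative. Signs turned only for members that were not called. Without single libraries the log2 fold change ran from -0.09 to 0.42 for Adamts13, -0.06 to 0.31 for Adamtsl5, -0.08 to 1.5 for Mmp8, -0.82 to 0.62 for Mmp9, -0.11 to 0.00 for Mmp14 and -0.19 to 0.16 for Timp1. Mmp9 was at -0.08 in limma-voom, -0.01 on log2(TPM + 0.1) and -0.26 with the block, and Timp1 at -0.01 in limma-voom and -0.00 with the block. Mmp14 was at 0.00 under library size alone, 0.06 on both log2 TPM scales and 0.01 without controls 2 and 4. Adamtsl5 was at -0.05 with length offsets. Without controls 2 and 3 and knockout-labelled library 1, Adamts13 was at -0.16 and Mmp17 at -0.01. Over all genes 2959 were called, and 1889 without controls 2 and 4. Library size alone shifted the median of all genes to 0.05. Replicate numbers showed no clear pairing of the libraries: deviations of same-numbered libraries correlated at -0.196 to 0.35, and 3 of 10 libraries correlated best with their own number. So few libraries cannot exclude a pairing. With the replicate number as a block, 14 members were called higher and 0 lower, with 2567 genes called in all. Genes under about 1 CPM rest on few counts.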
